A study of Mus musculus with 12 samples.

Results

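Acvr1c, Ano3, Gpr155, Tmem158, Rasd2, Rasgrp2, Gprin3, Actn2 and Trank1 are 9 protein-coding genes of membrane proteins, signalling proteins and scaffolds that striatal spiny neurons express strongly and that lie outside the dopamine and cAMP cascade. They were selected by name from the 57132 gene rows of a striatal count table, with earlier results of the comparison below known, so the genotype values of these genes are given as a description, with no test. The libraries were made from the striatum of 10-month-old C57Bl/6 mice, 6 labelled TAAR5-KO and 6 labelled TAAR5-WT (littermates with a normal Taar5, written WT here), housed alike and with no treatment named. Each group held male and female mice, but the labels do not give the sex of a library, and sex was not used in any comparison. Taar5 encodes a trace amine-associated receptor, a G protein-coupled receptor for volatile amines, and the labels name no cell type to which its loss was restricted. The tissue was a coronal slice in front of Bregma from which the cortex had been cut away, so it held all striatal cell types and not only spiny neurons.

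Spiny projection neurons are the GABAergic output cells of the striatum and by far its most numerous neurons. They receive glutamate from the cortex and thalamus on dendritic spines and dopamine from the midbrain, and they form the direct and indirect pathways of the basal ganglia. Small GTP-binding proteins of the Ras and Rap families, their exchange factors and the actin scaffold of the spine pass on calcium and receptor signals in these cells. The activin receptors are a separate route, in which a receptor kinase phosphorylates Smad proteins that enter the nucleus.

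The labels could not be checked by Taar5 itself. Its counts in the libraries labelled TAAR5-KO were 2, 3, 2, 1, 2 and 6 (NK1 to NK6, the names of the table's columns), and in those labelled WT they were 0, 1, 0, 0, 2 and 0 (NK7 to NK12). That is the opposite direction to a loss of the transcript, at very low counts. Below, TAAR5-KO and WT stand for the libraries labelled so. A count of 0 allows up to 3. The part of the gene that was removed is not given in the sources used here, and all directions rest on the labels. The libraries held 11269915 to 34824450 counts, of which ribosomal RNA took 64.3% to 88.1%, so 1819907 to 6399188 counts were left for all other genes. The libraries labelled TAAR5-KO had a count in 21448 to 26145 features and those labelled WT in 24024 to 28441 (two-sided exact permutation test, unadjusted p = 0.0238, n = 6 each). By the same permutation test the ribosomal RNA share, the counts outside ribosomal RNA and the trimmed-mean scaling factor had unadjusted p of 0.312, 0.976 and 0.364. The WT library NK11 had the most features detected and stood apart for the 9 genes, being the lowest of all 12 libraries for 8 of them, and results that rest on it are given with and without it. The summed level of 24 other spiny neuron genes, such as those of the dopamine receptors, was 482 to 947 CPM (counts per 1000000 of a library's total after trimmed-mean scaling) over the 12 libraries. That of 9 cortical pyramidal neuron markers was 31.9 to 118 CPM, and all 24 spiny neuron genes had counts in all libraries. The enrichment of the 9 genes in the striatum could not be checked here, since no other tissue was compared.

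All 9 genes passed the filter on low counts, with 28 to 3112 counts a library. Of the promoter entries of RefSeq (build GRCm38.p6, 250 bases before to 50 after the start site), 11 belonged to 8 of the 9 genes (Tmem158 had none), and each matched 1 place in the GRCm39 genome exactly. The stretches shown are those parts of the 250 upstream bases that lie outside every exon of the annotation used for counting. Acvr1c, Gpr155 and Trank1 are shown because the libraries of the groups did not overlap for them, and Rasd2 because its difference was the smallest. The groups did not overlap for Ano3 either, but its windows had 0 bases outside exons, so no stretch of it is shown. Capitals mark the GC box (GGGCGG on either strand), the element bound by Sp1-type factors. The stretches lie on chr2:58247908-58248020 (minus strand, 113 bases), chr2:73216917-73217074 (minus strand, 158 bases), chr9:111140557-111140806 (plus strand) and chr8:75940322-75940571 (plus strand), written 5′ to 3′ on the strand of the gene.
Acvr1c: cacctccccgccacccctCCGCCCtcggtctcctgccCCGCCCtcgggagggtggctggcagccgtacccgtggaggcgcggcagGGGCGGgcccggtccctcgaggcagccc
Gpr155: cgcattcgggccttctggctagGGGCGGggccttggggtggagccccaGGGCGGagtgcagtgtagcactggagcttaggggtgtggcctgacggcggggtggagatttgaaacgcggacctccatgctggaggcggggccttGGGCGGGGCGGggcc
Trank1: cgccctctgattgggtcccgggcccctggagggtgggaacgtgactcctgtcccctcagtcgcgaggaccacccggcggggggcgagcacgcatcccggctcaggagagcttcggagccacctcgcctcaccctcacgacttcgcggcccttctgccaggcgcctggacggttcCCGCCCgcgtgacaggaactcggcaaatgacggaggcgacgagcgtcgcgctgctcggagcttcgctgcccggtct
Rasd2: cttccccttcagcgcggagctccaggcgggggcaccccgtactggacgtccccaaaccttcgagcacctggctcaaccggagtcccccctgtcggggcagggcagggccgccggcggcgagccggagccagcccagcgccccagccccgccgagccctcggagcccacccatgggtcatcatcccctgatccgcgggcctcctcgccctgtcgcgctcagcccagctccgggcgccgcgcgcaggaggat
A GC box was present in 7 of the 11 windows of 250 upstream bases and in 32.7% of all 32851 promoter windows of that length. The stretch of Acvr1c held 3, that of Gpr155 held 4, of which a pair overlapped, and that of Trank1 held 1. The whole windows of these start sites held 3, 7 and 1, and none of these letters were found in the window of Rasd2. Of the genes not shown, Ano3 had 0 in each window, although its groups did not overlap. Among genes whose groups overlapped, the windows held 2 in Gprin3, 1 in Actn2, and 5 and 2 in Rasgrp2. A relation of GC boxes to the genotype difference was not tested. The TATA box letters TATAAA were in 1 of the 11 windows, a second start of Ano3, against 12.4% of all windows. The E-box CACGTG was in 3 against 6.02%, and the cAMP response element TGACGTCA and the AP-1 letters TGANTCA were in 0, against 1.55% and 6.75%. The 11 windows of 250 bases had 2 to 32 CG dinucleotides, where the median of all windows was 6. For the start sites of the stretches shown, the whole window had 32 in Acvr1c, 17 in Gpr155, 30 in Trank1 and 27 in Rasd2. A match of letters is a description and not a bound site.

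The first question was how these genes differed between the labelled genotypes. All 9 had a higher mean in the libraries labelled TAAR5-KO, with log2 fold changes from 0.17 to 0.51 and a median of 0.35, where the median of all 13902 features tested was −0.0059. In the likelihood ratio test of edgeR across all features, 4 of the 9 were past the adjusted p threshold of 0.1. Over all features 1.65% were past it, 0.957% higher and 0.691% lower in TAAR5-KO, and nothing is read from the count of 4 because the genes were chosen with this contrast known. For the same 4 genes (Acvr1c, Ano3, Gpr155 and Trank1), each of the 6 libraries labelled TAAR5-KO lay above each of the 6 labelled WT, as was so for 0.626% of all features. For the other 5 genes the groups overlapped. In bulk tissue, more RNA per spiny neuron and a larger share of spiny neurons cannot be told apart.

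**Figure D1:**
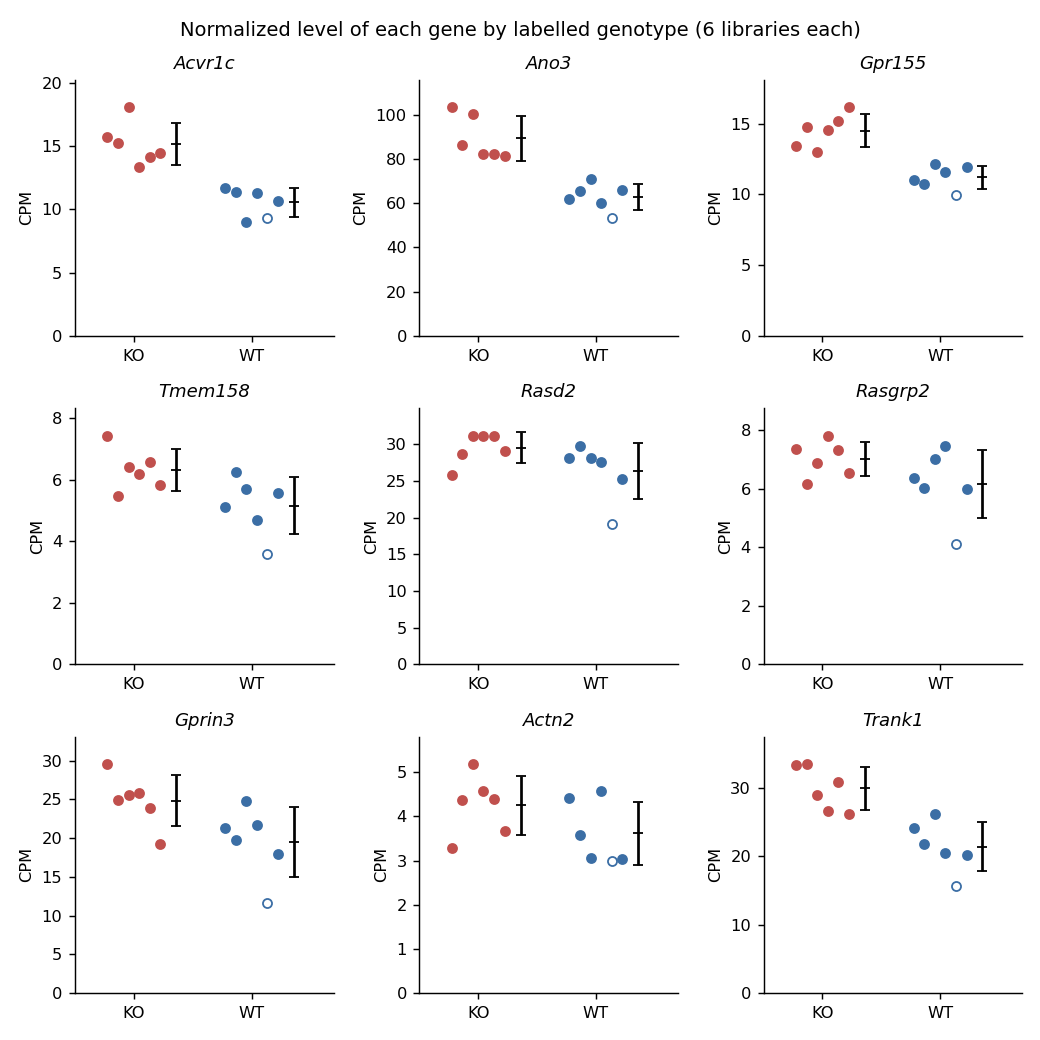
Normalized level (CPM, linear axes from 0) of the 9 genes in each library labelled KO (red) or WT (blue); the open circle is the WT library NK11, and bars give the mean and SD of 6 libraries. Acvr1c, Ano3, Gpr155 and Trank1 show no overlap between groups, and NK11 is the lowest point in 8 of the 9 panels.

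The membrane proteins included the receptor Acvr1c and the genes Ano3, Gpr155 and Tmem158. Acvr1c (ENSMUSG00000026834.14, GRCm39 chromosome 2, 58157465 to 58247907, minus strand, 11 exon blocks) encodes ALK7, a type I receptor kinase for activins and related ligands that phosphorylates Smad2 and Smad3. Its level ran from 13.4 through a median of 14.8 to 18.1 CPM in TAAR5-KO and from 8.97 through 10.98 to 11.7 CPM in WT. The lowest TAAR5-KO library, NK4, was above the highest WT library, NK7. The means were 15.2 ± 1.64 and 10.6 ± 1.15 CPM (SD, n = 6 each), and the resulting log2 fold change, 0.51 (SE 0.098), was the highest of the 9.

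Ano3 (ENSMUSG00000074968.12, chromosome 2, 110485546 to 110781268, minus strand, 28 exon blocks) encodes anoctamin-3, a membrane protein of the TMEM16 family in which mutations cause a form of dystonia. Its level was 81.2 to 103 CPM in TAAR5-KO, with a median of 84.2, and 53.3 to 70.8 CPM in WT, with a median of 63.7. NK1 and NK3 were well above the other 4 TAAR5-KO libraries, which lay close together, and all 6 were above the highest WT library, NK9. The means of 89.3 ± 10.0 and 62.9 ± 5.99 CPM (SD, n = 6 each) gave a log2 fold change of 0.50 (SE 0.10).

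Gpr155 (ENSMUSG00000041762.17, chromosome 2, 73171850 to 73216916, minus strand, 19 exon blocks) encodes a lysosomal membrane protein that senses cholesterol for the mTORC1 kinase. It had 13.0 to 16.2 CPM in TAAR5-KO (median 14.7) and 9.97 to 12.1 CPM in WT (median 11.3). The gap between the groups was narrow, from NK9 at 12.1 to NK3 at 13.0 CPM, and the libraries of a group differed little, with SDs of 1.17 and 0.814 CPM (n = 6 each) around means of 14.5 and 11.2 CPM. The log2 fold change was 0.39 (SE 0.089).

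Tmem158 (ENSMUSG00000054871.6, chromosome 9, 123088118 to 123089829, minus strand, 1 exon block) encodes a membrane protein first described as induced by Ras. Its level was 5.46 to 7.43 CPM in TAAR5-KO (median 6.30) and 3.60 to 6.26 CPM in WT (median 5.34). The groups overlapped, since 3 of the 6 TAAR5-KO libraries lay above all of WT and 3 did not. The log2 fold change was 0.28 (SE 0.13), and it was 0.19 (SE 0.12) without NK11, where Tmem158 had its lowest level.

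Rasd2, Rasgrp2 and Gprin3 belong to signalling by GTP-binding proteins. Rasd2 (ENSMUSG00000034472.14, chromosome 8, 75940572 to 75950741, plus strand, 4 exon blocks) encodes Rhes, a small GTP-binding protein enriched in the striatum. It had 25.8 to 31.2 CPM in TAAR5-KO (median 30.1) and 19.1 to 29.8 CPM in WT (median 27.8). Apart from NK11 at 19.1 CPM, the WT libraries lay at 25.3 CPM or more, within or just below the range of TAAR5-KO. The log2 fold change, the smallest of the 9, was 0.17 (SE 0.11), and 0.089 (SE 0.091) without NK11.

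Rasgrp2 (ENSMUSG00000032946.17, chromosome 19, 6449370 to 6465246, plus strand, 14 exon blocks) encodes CalDAG-GEFI, which loads Rap1 with GTP in response to calcium and diacylglycerol. The range was 6.17 to 7.81 CPM in TAAR5-KO (median 7.09) and 4.11 to 7.47 CPM in WT (median 6.19), and 1 TAAR5-KO library, NK4, was above every WT library. Its log2 fold change of 0.22 (SE 0.12) was 0.13 (SE 0.11) without NK11.

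Gprin3 (ENSMUSG00000045441.6, chromosome 6, 59324211 to 59403279, minus strand, 2 exon blocks) encodes a protein of the family of G protein-regulated inducers of neurite outgrowth. Its fitted variation between libraries, 16.5%, was the widest of the 9, and its level ran from 19.3 to 29.6 CPM in TAAR5-KO (median 25.3) and from 11.6 to 24.8 CPM in WT (median 20.5), and the groups overlapped between NK6 and NK9. The log2 fold change of 0.35 (SE 0.14) was 0.24 (SE 0.12) without NK11.

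Actn2 and Trank1 encode a scaffold and a large repeat protein. Actn2 (ENSMUSG00000052374.17, chromosome 13, 12284312 to 12355641, minus strand, 22 exon blocks) encodes alpha-actinin-2, which cross-links actin and binds NMDA receptors in dendritic spines. It had the lowest counts of the 9, 28 to 141 a library, with 3.29 to 5.19 CPM in TAAR5-KO (median 4.39) and 3.00 to 4.58 CPM in WT (median 3.33). The groups overlapped over most of their range, and the log2 fold change was 0.24 (SE 0.15), or 0.19 (SE 0.16) without NK11.

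Trank1 (ENSMUSG00000062296.9, chromosome 9, 111140807 to 111224843, plus strand, 26 exon blocks) encodes a large protein with tetratricopeptide and ankyrin repeats. Its level was 26.2 to 33.5 CPM in TAAR5-KO (median 29.9) and 15.7 to 26.1 CPM in WT (median 21.1). The groups did not overlap, but the lowest TAAR5-KO library, NK6 at 26.2 CPM, was next to the highest WT library, NK9 at 26.1 CPM. The means were 29.9 ± 3.18 and 21.4 ± 3.61 CPM (SD, n = 6 each), with a log2 fold change of 0.49 (SE 0.11), and 0.41 (SE 0.11) without NK11.

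Without NK11 all 9 differences were smaller but still above 0, from 0.089 to 0.47, with a median of 0.24 in place of 0.35. The exons of the genes differed in base composition. Acvr1c, Ano3, Gpr155 and Gprin3 have exons of 40.0%, 39.8%, 42.1% and 41.7% GC, below the median of 48.4% of all features tested, and Tmem158, Rasd2, Rasgrp2 and Actn2 have 63.8%, 55.4%, 52.6% and 53.0%. With each library's dependence on GC content taken out, the values of the 4 low-GC genes were lower and those of the other 5 higher, with a range of 0.26 to 0.52. All 9 remained above 0, Tmem158 had 0.43 in place of 0.28 and Acvr1c 0.38 in place of 0.51, and Gpr155, at 0.31, was no longer past the threshold. On library size alone, without trimmed-mean scaling, the median of all features was −0.49 and all 9 genes had negative log2 fold changes, from −0.28 to −0.032. Relative to that shift they lay 0.22 to 0.46 higher than the median feature.

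**Figure D2:**
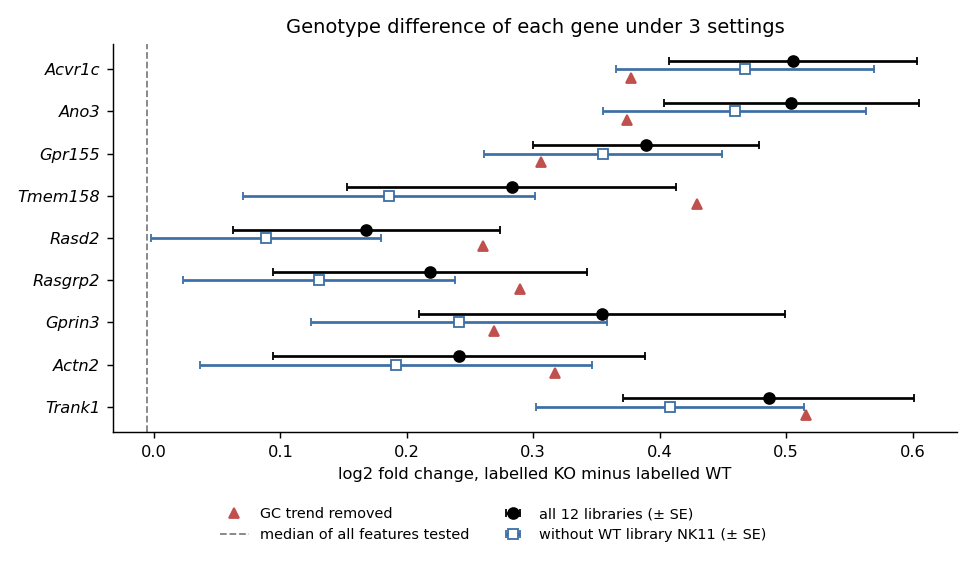
Log2 fold change of each gene, labelled KO minus labelled WT, with all 12 libraries (black, ± SE), without the WT library NK11 (open blue squares, ± SE) and with the GC trend removed (red triangles); the dashed line is the median of all features tested. All points lie above 0, and the triangles are left of the black points for Acvr1c, Ano3, Gpr155 and Gprin3 and right of them for the other 5.

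Features that overlap these genes on the opposite strand had few counts. The strand setting of the counting is not given in the sources used here, so shared reads cannot be told apart. Muc15, which shares 61 exon bases with Ano3, had 5 to 25 counts a library where Ano3 had at least 499. Gm13544 shares 168 exon bases with Acvr1c and had 0 to 4 counts, Gm13703 and Gm13709 share 120 and 166 with Gpr155 and Gm14965 shares 265 with Rasgrp2, each with 0 to 2. A further feature in Acvr1c, Gm13545, shares no exon base with it and had 0 to 2.

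The second question was how abundant each transcript was, which the selection did not use. Levels were compared per length, as CPM per kilobase of exon, averaged over all 12 libraries. Ano3 was highest at 10.5 ± 2.20 CPM per kb (SD, n = 12), followed by Rasd2 at 8.79 ± 1.06 and, far below, Tmem158 at 3.35 ± 0.575. Gprin3 had 2.66 ± 0.562, Trank1 1.96 ± 0.420, Gpr155 1.93 ± 0.294, Acvr1c 1.38 ± 0.297, Actn2 1.04 ± 0.196 and Rasgrp2 0.532 ± 0.0795 CPM per kb. The exon length used for Rasgrp2, 12384 bases in a gene of 14 exon blocks, joins the exons of all annotated transcripts, and its level per length is a low estimate if the transcripts in use are shorter.

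Of the 8 steps between neighbours in this order, 7 differed (two-sided exact sign-flip permutation test of log2 levels over 12 libraries, adjusted p over the 8 steps from 0.000781 to 0.00502). The widest step was from Rasd2 to Tmem158, with a mean difference of 1.39 on the log2 scale (SD 0.184), and it had the same sign in 12 of 12 libraries. Trank1 and Gpr155 did not differ beyond their spread, with a mean log2 difference of 0.0062 (SD 0.208, exact permutation test, adjusted p = 0.919) and Trank1 higher in 7 of 12 libraries. Ano3 was above Rasd2 in 9 of 12 libraries, by 0.24 on the log2 scale (SD 0.252). These were 6 of 6 libraries labelled TAAR5-KO and 3 of 6 labelled WT, where the means of Ano3 and Rasd2 were 8.71 and 8.29 CPM per kb.

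**Figure D3:**
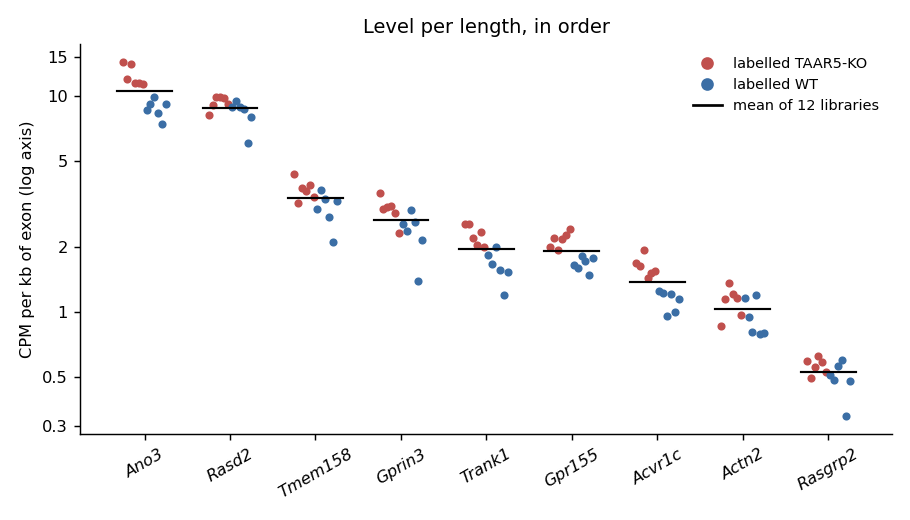
Level of each gene per kilobase of exon (CPM per kb, log axis) in the 12 libraries, red for labelled TAAR5-KO and blue for labelled WT, with the mean as a line, in order of the means. Ano3 and Rasd2 stand above the rest, Trank1 and Gpr155 lie side by side, and Rasgrp2 is lowest at 0.532 CPM per kb. The value of Rasgrp2 is a low estimate if its transcripts in use are shorter than the joined exons.

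The third question was whether the genes varied together between animals of a genotype. Log2 CPM values were centred within each labelled genotype and correlated over the 12 libraries for the 36 pairs. The Pearson r was above 0 for 31 pairs, with a median of 0.41, and the median Spearman rho was 0.25. No pair passed the threshold of 0.05 after adjustment over the 36 (permutation within genotype, 100000 resamples), and 6 pairs had an unadjusted p under 0.05 by r and 4 by rho. Gprin3 took part in the closest pairs, with r = 0.86 and rho = 0.84 to Rasgrp2 (adjusted permutation p = 0.0722 for r and 0.0576 for rho) and r = 0.86 and rho = 0.65 to Trank1 (adjusted permutation p = 0.0722 and 0.330). Without the 2 libraries farthest from the median of Rasgrp2 the first r was 0.65, and without those farthest from the median of Gprin3 the second was 0.61. Ano3 reached the same adjusted permutation p for r with Tmem158 (r = 0.76, rho = 0.73) and with Gprin3 (r = 0.72, rho = 0.57). Without the 2 libraries farthest from the median of Ano3 these r were 0.79 and 0.75.

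Much of the shared variation came with 1 library. Among the WT libraries the median r of the 36 pairs was 0.68 and 33 were above 0, while among the TAAR5-KO libraries the median was −0.00016 and 18 were above 0. The difference between genotypes in r was not tested. Without NK11 the median r was 0.12 among the remaining 5 WT libraries and −0.032 over both groups. Leaving out, for each pair, the 2 libraries farthest from the median of its first gene gave a median r of 0.36, with 26 of 36 pairs above 0. Single pairs were also positive among the TAAR5-KO libraries alone, such as Rasd2 and Actn2 (r = 0.86) and Acvr1c and Ano3 (r = 0.81), which are the highest of 36. Others were as far below 0, and the lowest were Ano3 and Gpr155 (r = −0.90) and Gpr155 and Gprin3 (r = −0.82). These pairs are given as a description. Relative to each gene's mean over all 12 libraries, NK11 was below for all 9 genes, by an average of 0.56 on the log2 scale. The next lowest library, NK12, was below by 0.19. These 2 values were not centred within genotype, so they include the difference between the labelled genotypes. Before the library totals were corrected by trimmed-mean scaling, on library size alone, the median r was 0.98 and all 36 pairs passed the threshold.

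**Figure D4:**
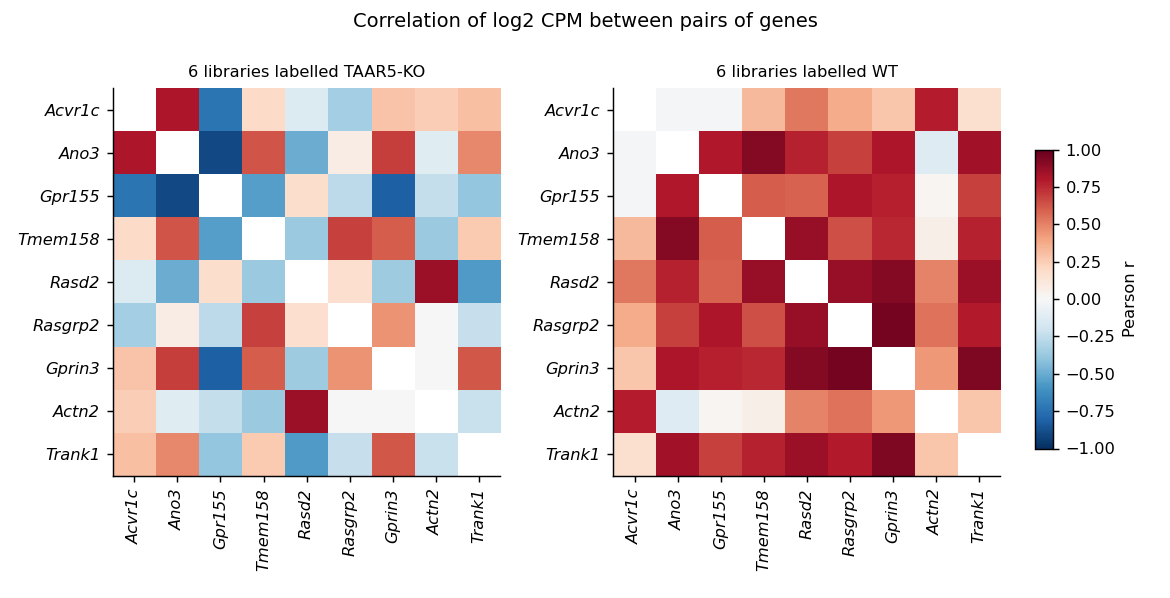
Pearson r of log2 CPM for each pair of the 9 genes in the 6 libraries labelled TAAR5-KO (left) and the 6 labelled WT (right), on a colour scale from −1 (blue) to 1 (red). The WT panel is mostly red, with a median r of 0.68 that is 0.12 without the library NK11, and the TAAR5-KO panel is mixed, with a median near 0.

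Features that followed the mean of the 9 genes most closely within genotype were looked for among 4597 others with a mean of at least 5 CPM. The 5 with the highest r included Penk, which encodes the precursor of enkephalin (r = 0.98, rho = 0.90), Strn, which encodes the calmodulin-binding scaffold striatin (r = 0.96, rho = 0.94), and Pde7b, which encodes a cAMP phosphodiesterase (r = 0.95, rho = 0.78). Without the 2 libraries farthest from the median these r were 0.83, 0.82 and 0.58 for Penk, Strn and Pde7b. They are the highest of 4597 values over 12 libraries that share their scaling, and they are given as a description. Penk and the other 2 of the 5 were in the list of 24 other spiny neuron genes, which is otherwise reported by counts.

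The summed level of these 24 genes, which code for dopamine receptors, cAMP cascade proteins, peptides and transcription factors, followed the mean of the 9 genes within genotype (r = 0.97, adjusted permutation p = 0.00816, and rho = 0.90, adjusted permutation p = 0.00444, over 12 relations). Without the 2 libraries farthest from the median r was 0.76. The other 11 measures of the libraries, which were the ribosomal RNA share, the counts outside ribosomal RNA, the number of features detected, the scaling factor and the sums of 7 marker lists, had adjusted permutation p from 0.0650 to 0.891. The closest was the number of features detected, with r = −0.66 and rho = −0.52 (adjusted permutation p = 0.0650 and 0.416), and r = −0.11 without the 2 farthest libraries.

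In the comparison of genotypes, 23 of the 24 other spiny neuron genes had a log2 fold change above 0, with a median of 0.25 where the 9 genes had 0.35. None of the 24 was past the threshold by the likelihood ratio or the quasi-likelihood test of edgeR and 2 were by DESeq2, with 10, 9 and 10 at an unadjusted p under 0.05. Of all 13902 features, 229, 63 and 177 were past the threshold by these tools in the same order. An unadjusted p under 0.05 was reached by 1654, 1667 and 1352 of them. Their summed level was 750 to 947 CPM in TAAR5-KO and 482 to 813 CPM in WT (two-sided exact permutation test, p = 0.0303, adjusted p = 0.0808 over 8 lists). Without NK11 the median was 0.14 and 19 of 24 were above 0, and on library size alone it was −0.28, which is above the median of −0.49 of all features in that scaling. With the GC trend removed, the medians lay closer together, at 0.28 for the 24 genes and 0.32 for the 9. Whether the 9 genes differed more than these 24 was not tested. The 24 were also chosen with earlier results of these data known, so their p-values between genotypes are given as a description.

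The marker lists of other cell types were also chosen with earlier results of these data known, so their p-values are given as a description. Of these lists, that of microglia differed between the groups. The summed level of 9 microglia markers was 29.4 to 42.1 CPM in TAAR5-KO and 42.8 to 52.1 CPM in WT, with no overlap (two-sided exact permutation test, p = 0.00216, the smallest that 6 against 6 can give, adjusted p = 0.0173), although no list passed on library size alone. All 9 had log2 fold changes below 0, with a median of −0.36, and 3 passed the likelihood ratio test at an adjusted p under 0.1, where 0.691% of all features were past it in this direction. By the quasi-likelihood test 0 were past it, with 5 at an unadjusted p under 0.05, and by DESeq2 2 were. The numbers over all features for each tool are those given above beside the other spiny neuron genes. All 9 astrocyte markers were also below 0 (median −0.24, 1 past the threshold by the likelihood ratio test and by DESeq2 and 0 by the quasi-likelihood test, with 6 at an unadjusted p under 0.05 by each), as were 8 of 9 mature oligodendrocyte markers (median −0.16, none past it by either edgeR test, 1 by DESeq2 and 3 at an unadjusted p under 0.05). Their sums were 999 to 1207 and 1105 to 1301 CPM for astrocytes and 600 to 734 and 636 to 817 CPM for oligodendrocytes in TAAR5-KO and WT (exact permutation test, adjusted p = 0.307 and 0.0808). Cortical pyramidal neuron markers, at 31.9 to 105 and 37.7 to 118 CPM, and interneuron markers, at 31.4 to 37.9 and 33.7 to 38.6 CPM, had adjusted p of 0.916 and 0.653 in the same exact permutation test. Endothelial markers, at 6.04 to 8.42 and 5.42 to 7.43 CPM, and those of ependyma and choroid plexus, at 3.68 to 474 and 5.90 to 288 CPM, had 0.634 and 0.653. No marker of these 7 lists was at 0 in all libraries. Their part in the higher levels of the 9 genes was not tested.

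The last question was whether other genes of the same pathways differed. The lists were set by pathway or family, but earlier results of these data were known when they were chosen. Acvr1c signals with type II receptors through Smad proteins, and 20 of 26 other genes of the activin and TGF-beta receptor pathway passed the filter. None was past the threshold by the likelihood ratio test, the quasi-likelihood test or DESeq2, 10 were above 0 and 10 below, and their median log2 fold change was 0.011. Acvr2a, a type II receptor that pairs with ALK7, had 12.3 ± 1.88 CPM in TAAR5-KO and 12.0 ± 0.840 CPM in WT (SD, n = 6 each; log2 fold change 0.029, SE 0.10). The related type I receptor gene Acvr1b, at 1.91 ± 0.302 CPM per kb over both groups, was above Acvr1c on the per-length scale, and its log2 fold change was 0.16 (SE 0.12). Smad2 and Smad3, the targets of this receptor class, had log2 fold changes of −0.039 (SE 0.11) and −0.060 (SE 0.13).

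Of this pathway 3 genes had an unadjusted p under 0.05, by each of the 3 tools, where 1654 of all 13902 features had one in the likelihood ratio test. They are named after their values were seen, and their number is near that share. Gdf11, an activin-like ligand, had 2.67 to 4.89 CPM in TAAR5-KO (median 4.15) and 4.90 to 5.78 CPM in WT (median 5.44). The groups were separated only by the gap from 4.89 to 4.90 CPM, and the difference was −0.38 on the log2 scale (SE 0.12; edgeR likelihood ratio test, adjusted p = 0.109). Inhba, which encodes the subunit of activin A, had 3.23 to 6.74 CPM in TAAR5-KO and 3.37 to 4.81 CPM in WT, which gave 0.43 on the log2 scale (SE 0.16; adjusted p = 0.201 by the same edgeR test). Gdf11 was past the threshold without NK4 (adjusted p = 0.0533) and Inhba without NK5 (adjusted p = 0.0121) in the same edgeR fit. Skil, which encodes a repressor of Smad signalling, had 0.24 (SE 0.11, adjusted p = 0.331 by the same test).

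Of 38 other genes of Ras and Rap signalling 37 passed the filter, and none was past the threshold by the likelihood ratio test, the quasi-likelihood test or DESeq2. Their median log2 fold change was 0.019, with 23 above 0 and 14 below, and 1 had an unadjusted p under 0.05 by each tool. It was Mapk3, which encodes the kinase ERK1, with 8.19 to 11.5 CPM in TAAR5-KO and 8.43 to 16.1 CPM in WT (log2 fold change −0.30, SE 0.14, edgeR adjusted p = 0.331). Rasgrp1, which activates Ras in place of Rap, had 12.7 ± 1.81 CPM per kb and a log2 fold change of 0.062 (SE 0.12). Rasgrp2 had 0.532 CPM per kb, a low estimate if its transcripts in use are shorter than the joined exons. Rap1a and Rap1b, the substrates of CalDAG-GEFI, had −0.039 (SE 0.11) and 0.018 (SE 0.11). Rasd1, the relative of Rasd2, had 0.434 ± 0.276 and 0.550 ± 0.172 CPM (SD, n = 6 each).

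Of 14 relatives of Ano3, Gprin3 and Actn2, 11 passed the filter and none was past the threshold by any of the 3 tools. An unadjusted p under 0.05 was reached by 1, Ano5, in the likelihood ratio test (log2 fold change −0.71, SE 0.36, edgeR adjusted p = 0.396, with means of 0.377 and 0.588 CPM), and by 0 in the quasi-likelihood test and DESeq2. The median of the 11 was −0.014. Ano4 had 4.05 ± 0.573 and 4.24 ± 0.909 CPM (SD, n = 6 each), so that Ano3, at 89.3 and 62.9 CPM, was the most abundant of the 8 anoctamin genes tested on the CPM scale and, at 10.5 CPM per kb, also per length. Gprin1 had −0.26 (SE 0.16), the opposite sign to Gprin3, and Actn1 and Actn4, the alpha-actinins of non-muscle cells, had 0.14 (SE 0.13) and −0.043 (SE 0.11).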

How the data were processed

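Striatal RNA of 12 mice, depleted of ribosomal RNA, was sequenced by the authors from directional libraries (single-end reads, DNBSEQ G-400). Per the labels, reads were trimmed with cutadapt 4.1, aligned to GRCm39 with STAR 2.7.11b and counted per gene with featureCounts 2.0.6. The strand and multimapping settings of the counting are not given in the sources used here. The authors deposited whole-number counts for 57132 features with an exon length per feature. Columns were assigned to genotype by name, and the table does not tie them to single animals. A further 12 columns of other samples were not used.

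The 9 genes and all gene lists were chosen with earlier results of these data known. Features with at least 0.5 CPM (of total counts) in 3 libraries were fitted with edgeR 4.0.16 (generalized linear model, likelihood ratio test, Benjamini-Hochberg adjusted p under 0.1), as in the study's methods. Those name CPM normalization and no further scaling. TMM (trimmed-mean) scaling of the library totals was chosen here, and on library size alone the sign of all 9 genes is the opposite. The quasi-likelihood test of edgeR, DESeq2 1.42.0, other scalings, filters and trend corrections, and the omission of each library were alternatives. The fit and the permutation tests were checked on simulated data. Level per length used log2(CPM per kb + 0.05) and covariation used log2 CPM with a prior count of 2. Intervals were not computed, and a floor of 3 counts covers counting error only. The rule for naming took Taar5, the 9 genes, called genes of the pathway lists (of which there were 0), the 5 features most like the 9 in covariation (of which 3 are named), and overlapping features. The pathway genes in the text were named after their values were seen. Members of the other spiny neuron list, except Penk, among them the remaining 2 most alike features, and of the microglia and oligodendrocyte lists are not reported one by one.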

Additional observations from a re-analysis of the deposited data

Results flagged for a closer look

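Of the 34 groups of 6 libraries examined (the 9 genes and 8 gene lists in both labelled genotypes), 2 held a library far from the others by Dixon's test, and chance gives such a library in about 1 of 20 groups. The summed level of the 24 other spiny neuron genes was 482 CPM in the WT library NK11, where the next lowest WT library had 741 CPM. The summed level of the mature oligodendrocyte markers was 636 CPM in the WT library NK12, where the next lowest had 766 CPM. None of the 9 genes itself was separated in this way, although NK11 was the lowest library for 8 of them.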

How the results depend on the processing

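The number of features past the threshold was 229 in the likelihood ratio test, and 63 by the quasi-likelihood test, 7 on library size alone, 93 with no filter (43668 features tested), 108 at an adjusted p under 0.05, 98 with ribosomal RNA share as covariate, and 87 with the GC trend removed. It ran from 85 (without NK11) to 414 (without NK4) when 1 library was left out. The median log2 fold change of the 9 genes was 0.35, and −0.16 on library size alone, where the values were −0.040 for Acvr1c, −0.032 for Ano3, −0.052 for Gpr155, −0.21 for Tmem158, −0.28 for Rasd2, −0.24 for Rasgrp2, −0.16 for Gprin3, −0.26 for Actn2 and −0.034 for Trank1, and where the median of the other spiny neuron genes was −0.28. That scaling shifts the median of all features by −0.49. In every other fit run all 9 genes were above 0, with medians from 0.24 to 0.41 when 1 library was left out. Genes of the 3 pathway lists past the threshold numbered 0, and 0 to 1 when 1 library was left out. The order by level per length had 7 separated steps of 8 in all 15 alternatives, and all 9 genes in the same order in 10, with Trank1 and Gpr155 exchanged in the other 5. Pairs of genes with covariation past the threshold numbered 0, all 36 on library size alone (median r 0.98), and 0 to 3 when 1 library was left out, the median r then being −0.032 (without NK11) to 0.50 (without NK9). Marker lists that differed numbered 1 (microglia), 2 from summed log2 values (astrocytes as well), 0 on library size alone, and 1 to 2 when 1 library was left out. The cause of these changes was not tested. No paired analysis was possible because the columns of the table carry no animal numbers.

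Depth limits the less abundant genes most: counting error alone was 11.2% of the mean for Actn2 and 2.54% for Ano3, beside fitted variation between libraries of 13.0% and 11.8%.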
